A study of Mus musculus with 4 samples.

Results

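The set comprised 10 of the 32285 genes in the files. It was chosen by name, with earlier results of these data known. It holds 6 matrix metalloproteinases (MMPs), namely Mmp3, Mmp10, Mmp12, Mmp13, Mmp14 and Mmp19, the 3 tissue inhibitors Timp1, Timp2 and Timp3, and the sheddase Adam8. Each gene was described as its level in every cell class of each sample, fibroblasts included. MMPs are zinc-dependent endopeptidases that cut collagens, elastin, proteoglycans and many signalling proteins. Most are secreted as inactive precursors that other proteases activate, and TIMP proteins switch them off by occupying the active site. In the inflamed colon, macrophages, neutrophils and activated stromal cells are known sources of MMPs, and the enzymes take part both in tissue breakdown at ulcers and in repair.

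The study profiled single cells of the colonic lamina propria by droplet sequencing after colitis had been induced with dextran sulfate sodium (DSS) in the drinking water for a week. Its design set global AhR-null mice (B6.129-Ahr tm1Bra/J) against AhR+/+ littermates raised in the same cages on the C57BL/6 background. AhR is the aryl hydrocarbon receptor, a ligand-activated transcription factor, and the mice were 10 weeks old according to the labels. All 4 samples came from DSS-treated colons, each pooled over several mice, and CD45+ cells had been enriched with magnetic beads, so no untreated colon and no spread between animals is contained in the values. The sample labels do not state the genotype. The samples are therefore numbered 1 to 4 in the order of the sample list and are reported side by side, with no group means and no test between genotypes.

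The files held 45229 cells, with 72509408 to 135516016 unique molecular identifiers (UMIs) per sample, and 39550 cells were kept after filtering. Of these, 6900 (17.4%) fell in clusters with markers of unlike lineages, too few markers or leading genes of another class. They were left outside the named classes. Between 0.271% and 0.423% of cell barcodes were shared by any pair of samples. Levels are in CPM, the UMIs of a gene summed over the cells of a class in 1 sample, divided by all UMIs of those cells and multiplied by 1000000. Intervals are 95% exact Poisson intervals for CPM and 95% exact binomial intervals for shares of cells, and both cover counting error only. The CPM intervals treat UMIs of the same cell as independent and so leave out the spread between cells. A class was read in a sample only where it had at least 50 cells, so endothelial-like and pericyte and smooth muscle-like cells were read in samples 3 and 4 only, and epithelial-like cells in samples 1, 2 and 4. UMIs are counted at 1 end of a transcript, and levels of different genes were not ranked against each other.

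Fibroblast-like cells were few, with 59, 89, 322 and 141 cells in samples 1, 2, 3 and 4. All 12 of the markers used to name them were raised over the other classes in each sample. Ptprc, which encodes CD45, stood at 80.8 to 210 CPM in them and at 1195 to 1518 CPM in monocyte-macrophage-like cells, so these were cells with little CD45 mRNA that had passed through the enrichment. Monocyte-macrophage-like cells numbered 2669, 1602, 3376 and 2226 and neutrophil-like cells 1390, 666, 2236 and 1394. The share of a class among cells reflects the enrichment and is not read here as tissue composition.

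The set split between stromal and myeloid cells. Of the 10 genes, 8 had their highest level in the same class in all 4 samples, against 32.1% of the 8287 genes that reached 20 CPM in a class in each sample. Mmp14, Timp1, Timp2 and Mmp10 were highest in fibroblast-like cells in all 4 samples (all-gene share 4.80%). Mmp10 is counted here and among the 8 although it fell short of the 20 CPM minimum in samples 2 and 4. It is therefore not among the 8287 genes. Its fibroblast interval lay above that of the next class in sample 1 only. Mmp12, Mmp13 and Mmp19 were highest in monocyte-macrophage-like cells (4.11%) and Adam8 in neutrophil-like cells (7.12%). The remaining members, Mmp3 and Timp3, were highest in a stromal class throughout, but not in the same class in each sample. Timp3 was highest in endothelial-like cells in samples 3 and 4, the only samples where that class was read. A class not read in all 4 samples could not be the highest in all 4, for members and all genes alike. These counts and shares therefore depend on which classes were read. Because the members were chosen with earlier results known, counts above an all-gene share, here and below, are no independent result.

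**Figure D1:**
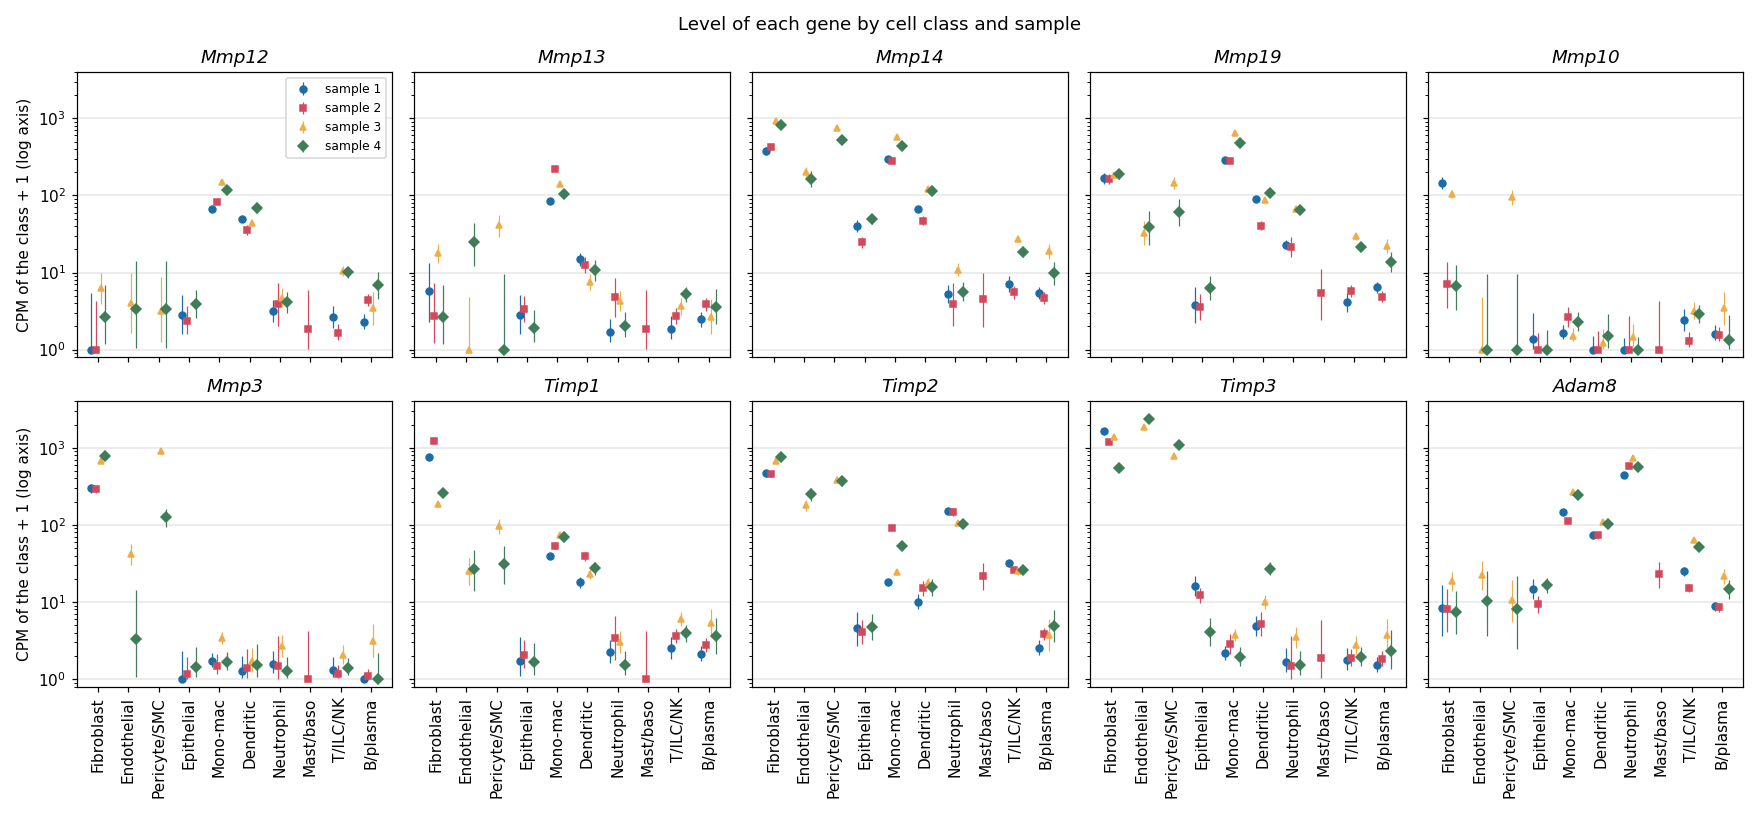
Level of each of the 10 genes by cell class; the y axis is CPM of the class plus 1 on a log scale, points are samples 1 to 4 and bars are 95% exact Poisson intervals. Mmp12, Mmp13 and Mmp19 peak in monocyte-macrophage-like cells, Adam8 in neutrophil-like cells, and Mmp3, Timp1, Timp2 and Timp3 in the stromal classes at the left.

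Mmp13, Mmp12, Mmp3 and Mmp10 lie in this order on the plus strand of chromosome 9, with other MMP genes between them, within chr9:7272514-7510240 (GRCm38, GENCODE M21), a stretch of 238 kb. These 4 genes divided between cell types, Mmp12 and Mmp13 in monocyte-macrophage-like cells and Mmp3 and Mmp10 in stromal cells. Their promoters are shown because the 4 genes carry like short motifs although their levels peaked in different cells. In Mmp12 the motifs were found at the second start only. Each sequence below is the 100 bases before a RefSeq start site (GRCm38.p6, plus strand, 5′ to 3′), and capitals mark the letters TGANTCA, the core that AP-1 factors bind, and TATAAA, the letters of the TATA box. The windows are chr9:7272414-7272513 for Mmp13, chr9:7344297-7344396 and chr9:7347274-7347373 for the first and second starts of Mmp12, chr9:7445722-7445821 for Mmp3 and chr9:7502242-7502341 for Mmp10.
Mmp13: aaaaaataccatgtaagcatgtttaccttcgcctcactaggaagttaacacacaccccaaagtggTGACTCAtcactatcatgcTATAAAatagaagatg
Mmp12, first start: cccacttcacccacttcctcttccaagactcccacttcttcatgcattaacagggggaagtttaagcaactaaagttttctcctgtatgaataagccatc
Mmp12, second start: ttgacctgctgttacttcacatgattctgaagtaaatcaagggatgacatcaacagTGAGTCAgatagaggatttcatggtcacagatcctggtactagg
Mmp3: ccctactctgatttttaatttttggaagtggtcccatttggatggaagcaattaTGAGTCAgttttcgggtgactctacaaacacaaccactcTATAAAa
Mmp10: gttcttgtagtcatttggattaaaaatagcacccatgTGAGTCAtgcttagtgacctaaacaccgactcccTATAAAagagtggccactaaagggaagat

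The motifs were searched on both strands in windows of 300 bases, from 250 before to 50 after each start, for the 9 of 10 members with an entry; Mmp19 has none there. TGANTCA was found in the windows of the 4 chromosome 9 members, beginning 35 bases before the start for Mmp13, 44 before the second start of Mmp12, 46 for Mmp3 and 63 for Mmp10, and in no window of the other 5. It occurs in 7.81% of all 32851 promoter windows. TATAAA was found in windows of the same 4 members and occurs in 13.6% of all windows. It began 16 bases before the start for Mmp13, 7 for Mmp3 and 29 for Mmp10. For Mmp12 it began 4 bases after the second start, outside the bases printed above. The window of the first Mmp12 start held neither TGANTCA nor TATAAA. The letters GCGTG, the core of the element that AhR binds, occur in 32.4% of all windows and were found once each in those of Timp1, Timp2 and Timp3, 206, 113 and 69 bases before the start, and in no window of an MMP member. A match describes these letters only and was not tested as a site.

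Mmp12 encodes macrophage elastase (chr9:7344381-7369499, 7 exons in its longest transcript). In monocyte-macrophage-like cells it stood at 65.7 CPM in sample 1, 82.2 in sample 2, 147 in sample 3 and 118 in sample 4, with intervals of 62.5 to 69.0 at the lowest and 142 to 151 at the highest. The intervals of the 4 samples did not overlap, and sample 3 was 2.23 times sample 1. Dendritic cell-like cells came next, at 48.5, 35.0, 43.1 and 66.8 CPM, below the monocyte-macrophage-like cells of the same sample in each case. Fibroblast-like cells held 0, 0, 14 and 2 UMIs of Mmp12 in samples 1 to 4.

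Mmp12 came from few cells. The 1% of monocyte-macrophage-like cells with most Mmp12 held 54.2%, 62.5%, 51.0% and 59.9% of its UMIs in samples 1 to 4, and in sample 2 a single cell held 169 of 861. Without those cells the level was 30.5, 31.3, 73.3 and 48.1 CPM, still highest in sample 3. Samples 1 and 2 then lay close together, so the gap between them in the class level rests on few cells. By the shares of cells that follow, sample 2 was lowest. After each cell was thinned to 1000 UMIs, 3.19%, 2.83%, 5.25% and 4.32% of monocyte-macrophage-like cells had an Mmp12 UMI, against 0.257%, 0.136%, 0.481% and 0.215% of B and plasma cell-like cells, which should lack it. Without thinning the shares were 9.14%, 8.05%, 12.9% and 9.07% at median depths of 5682 to 8841 UMIs, and 0.652% to 2.06% in B and plasma cell-like cells at medians of 3877 to 5103. Thinning left out 51 of 9873 monocyte-macrophage-like cells, 256 of 6811 B and plasma cell-like cells and 14 of 611 fibroblast-like cells, which were shallower.

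Mmp13, a collagenase that cuts fibrillar collagen (chr9:7272514-7283331, 10 exons), followed a different order over the samples. Its monocyte-macrophage level was 83.6 CPM in sample 1, 222 in sample 2, 138 in sample 3 and 104 in sample 4, with intervals of 80.0 to 87.3 at the lowest and 213 to 231 at the highest. Sample 2 was highest, 2.66 times sample 1, and no interval overlapped another. No other class read in a sample exceeded 39.9 CPM, which was reached by pericyte and smooth muscle-like cells of sample 3. Fibroblast-like cells stood at 4.82, 1.77, 16.9 and 1.62 CPM, and in sample 3 a single fibroblast-like cell gave 18 of the 45 UMIs.

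The share of monocyte-macrophage-like cells with an Mmp13 UMI was 4.24%, 8.19%, 4.78% and 4.59% after thinning, and 12.2%, 17.8%, 11.3% and 9.75% before. In B and plasma cell-like cells it was 0% to 0.220% after thinning and 0.965% to 1.15% before. The top 1% of cells held 39.7% to 54.2% of Mmp13 UMIs, and without them the level was 48.8, 137, 64.3 and 55.8 CPM, with sample 2 still highest. Mmp12 and Mmp13 were often found in the same cells. At equal depth, 12.9%, 28.9%, 21.5% and 15.8% of the cells with an Mmp12 UMI also had one of Mmp13, against 3.96%, 7.58%, 3.85% and 4.09% of cells without, in samples 1 to 4. The cells with Mmp12 numbered 85, 45, 177 and 95 at that depth, and their median depth before thinning, 6929 to 9355 UMIs, lay above that of cells without, 5682 to 8842.

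Mmp19, a widely expressed MMP that cuts basement membrane components, lies at chr10:128790910-128800824 and has 9 exons. Monocyte-macrophage-like cells held 284 CPM in sample 1, 280 in sample 2, 639 in sample 3 and 477 in sample 4. Samples 1 and 2 did not differ beyond their intervals (277 to 290 and 270 to 290), and samples 3 and 4 lay above both. The gene was broadly spread, with a UMI in 22.1%, 20.6%, 40.0% and 31.0% of cells after thinning, against 0.430% to 1.68% of B and plasma cell-like cells, and in 51.7% to 80.2% against 2.35% to 9.17% before thinning.

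Fibroblast-like cells formed the next highest class for Mmp19, and there the samples lay close together at 165, 162, 181 and 187 CPM, a 1.15-fold range with overlapping intervals. In sample 3 their interval also overlapped that of the pericyte and smooth muscle-like cells at 143 CPM. The fibroblast level was 58.2%, 57.7%, 28.3% and 39.2% of the monocyte-macrophage level of the same sample. Reference genes of monocyte-macrophage cells reached at most 1.81% of their own level in fibroblast-like cells. In neutrophil-like cells Mmp19 stood at 21.9, 20.4, 65.7 and 63.3 CPM.

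Mmp14 encodes a membrane-anchored MMP that cuts collagen at the cell surface and activates the gelatinase MMP2 (chr14:54431612-54445364, 10 exons). It was shared by both lineages. Fibroblast-like cells held 375, 426, 927 and 824 CPM, with intervals of 335 to 419 at the lowest and 891 to 965 at the highest. Monocyte-macrophage-like cells held 299, 277, 570 and 435 CPM. Fibroblasts lay 1.25, 1.54, 1.63 and 1.89 times above monocyte-macrophage-like cells within the samples, and the intervals were apart each time. Pericyte and smooth muscle-like cells stood between them in sample 3 at 756 CPM and in sample 4 at 523 CPM.

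Because fibroblast-like cells were so few, most Mmp14 UMIs in the kept cells belonged to monocyte-macrophage-like cells, 59.7% to 79.1%, and 3.36% to 11.3% to fibroblast-like cells. Mmp14 was evenly spread, the top 1% of monocyte-macrophage-like cells holding 6.88% to 8.77% of its UMIs. After thinning, 33.3%, 42.7%, 59.0% and 54.7% of fibroblast-like cells and 23.2%, 20.3%, 37.9% and 29.7% of monocyte-macrophage-like cells had an Mmp14 UMI, against 0.293% to 1.20% of B and plasma cell-like cells. Before thinning, the shares were 88.1% to 94.1%, 56.6% to 75.5% and 2.02% to 6.19%. In both classes samples 3 and 4 lay above samples 1 and 2.

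**Figure D2:**
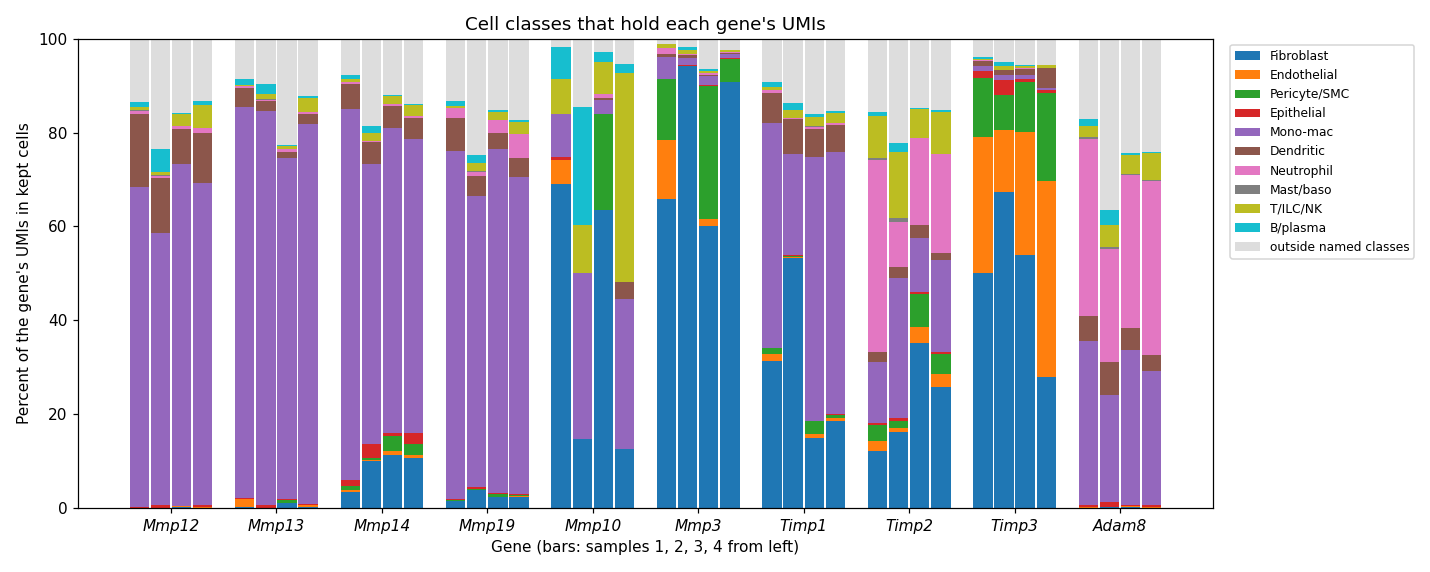
Percent of each gene's UMIs in kept cells (y axis) held by each cell class, with samples 1 to 4 as bars from left to right for each gene and gray for cells outside the named classes. Classes with fewer than 50 cells in a sample are drawn although their levels are not read. Monocyte-macrophage-like cells held 59.7% to 79.1% of Mmp14 UMIs although the level per class was highest in fibroblast-like cells.

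Mmp3 encodes stromelysin-1, which degrades proteoglycans and activates other pro-MMPs (chr9:7445822-7455975, 10 exons). Fibroblast-like cells held 296 CPM in sample 1, 287 in sample 2, 667 in sample 3 and 788 in sample 4. Samples 1 and 2 overlapped in their intervals (260 to 335 and 257 to 320), and both lay below samples 3 and 4, for which the intervals were 636 to 699 and 739 to 839. Pericyte and smooth muscle-like cells held 901 CPM in sample 3, above the fibroblasts, and 124 CPM in sample 4. An Mmp3 UMI was found in 12.6% of the 95 pericyte and smooth muscle-like cells of sample 3 and 5.77% of the 52 of sample 4 before thinning, and 66 of the 95 belonged to a sub-cluster that also carried 11 of 12 fibroblast markers. A single cell gave 355 of the 932 Mmp3 UMIs of that sub-cluster, of which 832 came from sample 3. The order of pericyte and smooth muscle-like cells and fibroblasts in sample 3 thus rests on few cells. In monocyte-macrophage-like cells Mmp3 did not pass 2.38 CPM. Fibroblasts stood 402, 602, 280 and 1218 times above them, and the lowest of these ratios rests on 59 monocyte-macrophage UMIs while the second rests on 5.

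Among fibroblast-like cells, those with Mmp3 were a minority. A UMI was found in 9.26%, 12.4%, 14.0% and 17.3% after thinning and in 28.8%, 40.4%, 25.5% and 31.9% before, against at most 0.240% and 1.83% of B and plasma cell-like cells. Single cells gave 30.2% and 31.3% of the Mmp3 UMIs in samples 1 and 4. Without the top 1% of cells the fibroblast level was 215, 255, 409 and 485 CPM.

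Mmp10, stromelysin-2 (chr9:7502352-7510240, 10 exons), was the most uneven member. Fibroblast-like cells held 146 CPM in sample 1, 6.18 in sample 2, 102 in sample 3 and 5.66 in sample 4, a 25.8-fold range. In sample 1 a single cell carried 116 of the 121 UMIs (95.9%), and in sample 3 a single cell carried 153 of 272 (56.2%). Without the top 1% of cells the levels of samples 1 and 3 were 6.14 and 20.9 CPM. Only 4 fibroblast-like cells of sample 1 and 21 of sample 3 had any Mmp10 UMI. The level of sample 1 therefore rests on a single cell. That of sample 3 rests largely on few cells, and without them it still lay above the untrimmed levels of samples 2 and 4. Pericyte and smooth muscle-like cells of sample 3 held 93.8 CPM, within the interval of the fibroblasts there.

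**Figure D3:**
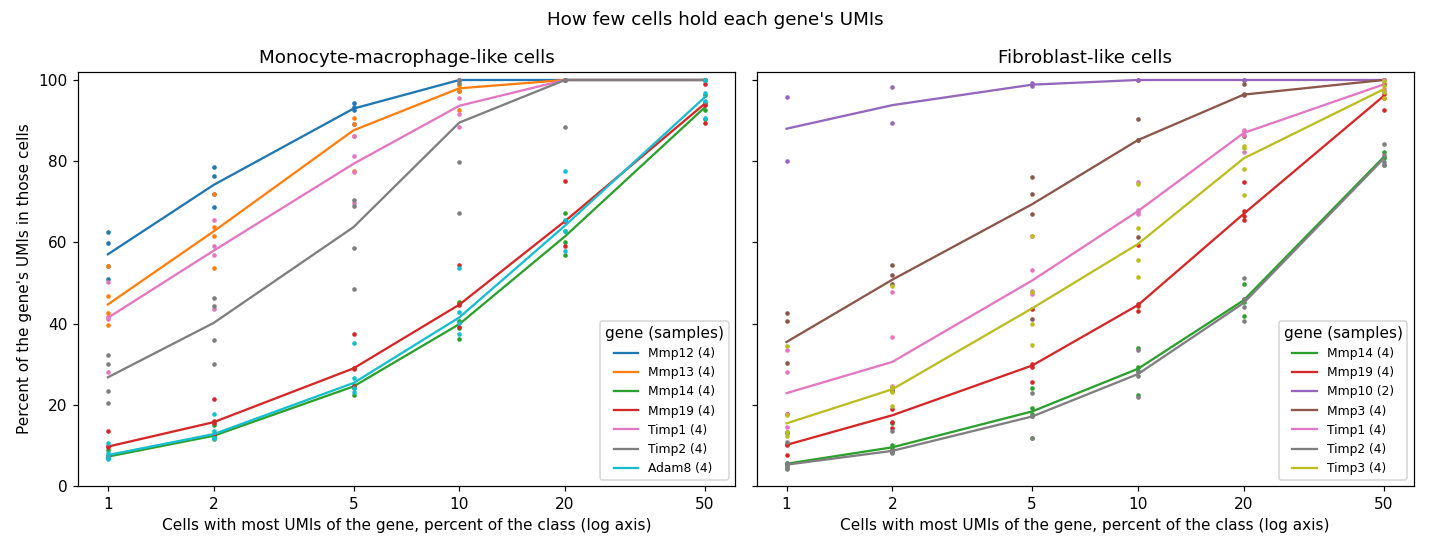
Percent of a gene's UMIs (y axis) held by the cells of a class with most of that gene (x axis, percent of the class, log scale). Dots are samples, lines are medians over samples, and the number of samples drawn for a gene stands in brackets. Samples with few UMIs of a gene in the class are not drawn. In monocyte-macrophage-like cells the top 1% of cells hold 51.0% to 62.5% of Mmp12 UMIs and 6.88% to 8.77% of Mmp14 UMIs.

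Timp1 (chrX:20870166-20874735, 6 exons) encodes a secreted inhibitor that is induced by inflammatory cytokines and also acts as a signalling protein. Fibroblast-like cells held 751 CPM in sample 1, 1206 in sample 2, 183 in sample 3 and 258 in sample 4, a 6.58-fold range with no overlap of intervals. Samples 1 and 2 lay above samples 3 and 4, opposite to Mmp3 and Mmp14. Monocyte-macrophage-like cells held 38.7, 52.3, 73.3 and 69.2 CPM, lowest in sample 1, so the ratio of fibroblasts to them ran from 23.1 in sample 2 to 2.50 in sample 3. Collagen and other fibroblast reference genes reached at most 0.235% of their fibroblast level in monocyte-macrophage-like cells, while Timp1 reached 5.15%, 4.34%, 40.0% and 26.8%. In sample 1 a single fibroblast-like cell gave 208 of 623 Timp1 UMIs, and without the top 1% of cells the fibroblast levels were 521, 1056, 137 and 218 CPM.

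After thinning, 29.6%, 29.2%, 11.7% and 13.7% of fibroblast-like cells had a Timp1 UMI, against 2.40% to 4.78% of monocyte-macrophage-like and 0% to 0.215% of B and plasma cell-like cells. Before thinning the shares were 67.8%, 80.9%, 44.4% and 45.4% in fibroblast-like cells and 0.679% to 2.06% in B and plasma cell-like cells. The gene lies inside Syn1, on the opposite strand, and shares no exon base with it.

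Timp2 inhibits secreted MMPs and, bound to MMP14, takes part in the activation of pro-MMP2 (chr11:118301069-118355740, 5 exons). Fibroblast-like cells held 466, 451, 671 and 767 CPM, and samples 3 and 4 lay above samples 1 and 2, which overlapped. The gene was read in most fibroblast-like cells, 88.7% to 92.1% before thinning and 31.5% to 51.8% after. Neutrophil-like cells held 149, 145, 105 and 101 CPM, which was 32.0%, 32.3%, 15.7% and 13.1% of the fibroblast level. Fibroblast reference genes reached at most 0.202% of theirs in neutrophil-like cells. A Timp2 UMI was present in 9.11% to 12.0% of neutrophil-like cells after thinning, against 0.0366% to 0.645% of B and plasma cell-like cells.

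In monocyte-macrophage-like cells Timp2 had the widest range among samples of the members past 20 CPM there, 16.9 CPM in sample 1, 89.8 in sample 2, 23.6 in sample 3 and 52.1 in sample 4, or 5.30-fold. Sample 2 was highest, as for Mmp13. T, ILC and NK cell-like cells stood at 24.0 to 30.7 CPM in all 4 samples. Pericyte and smooth muscle-like cells held 382 and 369 CPM and endothelial-like cells 178 and 248 CPM in samples 3 and 4.

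Timp3 encodes the inhibitor that binds to the extracellular matrix and also inhibits ADAM proteases (chr10:86300372-86349506, 5 exons). Fibroblast-like cells held 1634 CPM in sample 1, 1177 in sample 2, 1396 in sample 3 and 553 in sample 4, with intervals that did not overlap. Endothelial-like cells held 1840 and 2392 CPM in samples 3 and 4, above the fibroblasts in both. Pericyte and smooth muscle-like cells held 782 and 1075 CPM there. In monocyte-macrophage-like cells Timp3 did not pass 2.70 CPM, and fibroblasts stood 1381, 649, 517 and 592 times above them, on 13 to 67 monocyte-macrophage UMIs per sample. Single cells weighed on sample 1 again, where 468 of 1355 fibroblast UMIs came from 1 cell. Without the top 1% of cells the fibroblast levels were 1091, 1045, 1226 and 464 CPM, with sample 3 highest.

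A Timp3 UMI was found in 42.6%, 37.1%, 47.6% and 24.5% of fibroblast-like cells after thinning and 51.8% to 76.7% before, and in 69.0% and 81.1% of endothelial-like cells of samples 3 and 4 after thinning. B and plasma cell-like cells had 0.0366% to 0.240% after thinning and 0.358% to 2.06% before. Timp3 lies inside Syn3 on the opposite strand and shares 1733 exon bases with it. Dendritic cell-like cells, in which Syn3 stood at 56.9 to 306 CPM, were listed at 3.88, 4.20, 9.13 and 26.1 CPM of Timp3. In sample 4, 46 of these Timp3 UMIs came from a sub-cluster of 160 cells led by Plet1 and Plbd1, in 1.88% of its cells. Another 54 came from a sub-cluster with Syn3 among its leading genes. Whether the counting used strand is not given in the sources used here, so reads of the shared bases cannot be told apart. In fibroblast-like cells Syn3 stood at 8.08 to 18.1 CPM.

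Adam8 encodes a membrane sheddase of leukocytes that releases adhesion molecules and receptors from the cell surface (chr7:139978932-139992562, 22 exons). Neutrophil-like cells held 441 CPM in sample 1, 586 in sample 2, 730 in sample 3 and 567 in sample 4. Samples 2 and 4 overlapped in their intervals (554 to 620 and 551 to 584), sample 1 lay below and sample 3 above. Monocyte-macrophage-like cells followed at 145, 113, 267 and 241 CPM and dendritic cell-like cells at 73.4, 72.3, 107 and 101 CPM. Fibroblast-like cells held 6.47 to 17.7 CPM. After thinning 33.5%, 40.2%, 47.0% and 41.3% of neutrophil-like cells had an Adam8 UMI, and 0.215% to 2.88% of B and plasma cell-like cells. Before thinning the shares were 68.3% to 82.9% at median depths of 2935 to 5939 UMIs and 3.13% to 12.2%.

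Fibroblast-like and monocyte-macrophage-like cells were compared directly within each sample. Mmp3, Timp2 and Timp3 were at least 4-fold higher in fibroblasts in all 4 samples, 3 of the 10 members, against 12.6% of 6167 genes with at least 20 CPM in either class. Mmp12, Mmp13 and Adam8 were at least 4-fold lower in each sample (all-gene share 7.30%). Log2 ratios were taken after adding 1 CPM to both levels. The median log2 ratio over the samples was 7.62 for Mmp3, 8.64 for Timp3, 4.28 for Timp2 and 3.06 for Timp1. It was 0.66 for Mmp14, -1.07 for Mmp19, -3.99 for Adam8, -4.59 for Mmp13 and -5.78 for Mmp12. The added 1 CPM shrinks ratios where a level was near or below it, as for Mmp3, Timp3 and Mmp12. Mmp10 was 223, 3.81, 195 and 4.37 times higher in fibroblasts but did not reach 20 CPM in samples 2 and 4.

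UMIs were also summed over the members of each kind. In monocyte-macrophage-like cells the 6 MMP genes gave 17975, 9041, 37148 and 15791 UMIs and the 3 TIMP genes 1392, 1508, 2471 and 1700. In fibroblast-like cells the MMP genes gave 818, 999, 5047 and 2236 UMIs and the TIMP genes 2364, 3208, 5980 and 1952. Single cells gave 468 Timp3 and 208 Timp1 UMIs of these sums in sample 1 and 153 Mmp10 UMIs in sample 3. In neutrophil-like cells the MMP genes gave 258, 64, 752 and 558 UMIs, of which Mmp19 gave 583 in sample 3 and 488 in sample 4. The TIMP genes gave 1317, 312, 976 and 785 UMIs there, nearly all of them Timp2. These sums count transcripts at 1 end and are not a ratio of proteins or of activities. They leave out MMPs outside the set, so they do not compare all MMP with all TIMP transcripts of a class. In neutrophil-like cells Mmp8 stood at 1109 to 2103 CPM and Mmp9 at 641 to 1171 CPM. In fibroblast-like cells Mmp2 stood at 397 to 572 CPM.

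Between samples, 6 members spanned at least 2-fold in monocyte-macrophage-like cells, namely Mmp12, Mmp13, Mmp14, Mmp19, Timp2 and Adam8, against 14.6% of the 5994 genes that reached 20 CPM there. In fibroblast-like cells 5 members did so, Mmp3, Mmp10, Mmp14, Timp1 and Timp3, against 37.4% of 7341 genes. Mmp3, Mmp10 and Timp3 did not reach 20 CPM in monocyte-macrophage-like cells of any sample. Mmp12, Mmp13 and Adam8 did not reach it in fibroblast-like cells. Members short of 20 CPM in a class are not among the genes that its share is taken over. The larger all-gene share in fibroblasts stood beside smaller cell numbers, 59 to 322 cells against 1602 to 3376. The samples also differed in the sub-clusters that made up each class.

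Within monocyte-macrophage-like cells, 13 sub-clusters were formed without the members among the genes used. Their numbers are names, and each is described by its leading genes and its CPM over all samples. Sub-cluster 3, led by Fabp5, Acp5, Arg1, Mmp12 and Marco, held 1427 cells, 1001 of them from sample 3. There Mmp12 stood at 279 CPM, Mmp13 at 243, Mmp14 at 719 and Mmp19 at 644. Arg1, which encodes arginase-1 and marks alternatively activated and wound macrophages, stood at 437 CPM in it and at 519 CPM in sub-cluster 4, led by Cxcl1, Pf4 and Cd163, where Mmp12 was 52.1 CPM and Mmp13 93.9.

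Sub-cluster 6, led by Ccl8 and Cadm1, had all 11 resident macrophage markers raised and 292 of its 441 cells from sample 2. Its Mmp13 level was 495 CPM (471 to 519) and its Timp2 level 192 CPM, while Timp1 was 2.08 CPM. Mmp13 was detected in 42.9% of these cells before thinning, and Mmp12 in 10.9%. Sub-cluster 8, led by Ccl12 and Ccl7, also had 11 of 11 resident markers raised and held Timp2 at 129 CPM with Mmp14 at 163 and Mmp19 at 69.7 CPM. Timp2 was highest in sub-cluster 11, led by Ccl7 and Lyve1, at 430 CPM, and 112 of its 135 cells came from sample 2. Its level was 648 CPM in the other 23 cells.

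Sub-cluster 1 carried 5 of 9 monocyte markers and was led by Chil3 and S100a8. It held 2218 cells, of which 1536 came from sample 3 and 646 from sample 4. Timp1 was 146 CPM there, Adam8 314 CPM and Mmp19 605 CPM, while Timp2 was 3.87 CPM. In sub-cluster 5, led by Cxcl10 and S100a4 with 3 of 9 monocyte markers, Timp1 was 103 CPM (163 without sample 1), Timp2 9.08 and Mmp12 15.2 CPM. In these sub-clusters Timp1 stood beside monocyte markers and Timp2 beside resident markers. Some other sub-clusters did not follow this. Sub-cluster 13, led by Tll2 and Cc2d2b, had Timp1 at 130 CPM (77.8 without sample 3) and 0 of 9 monocyte markers. Sub-cluster 3 had Timp2 at 45.2 CPM (78.1 without sample 3) and 0 of 11 resident markers. Sub-cluster 7 had Timp1 at 81.0 CPM and 2 of 9 monocyte markers. Sub-cluster 10 was led by the lymphocyte genes Ebf1, Satb1 and Bank1, and held Mmp12 at 272 CPM (141 without sample 1). The part of mixed droplets in that level was not tested.

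**Figure D4:**
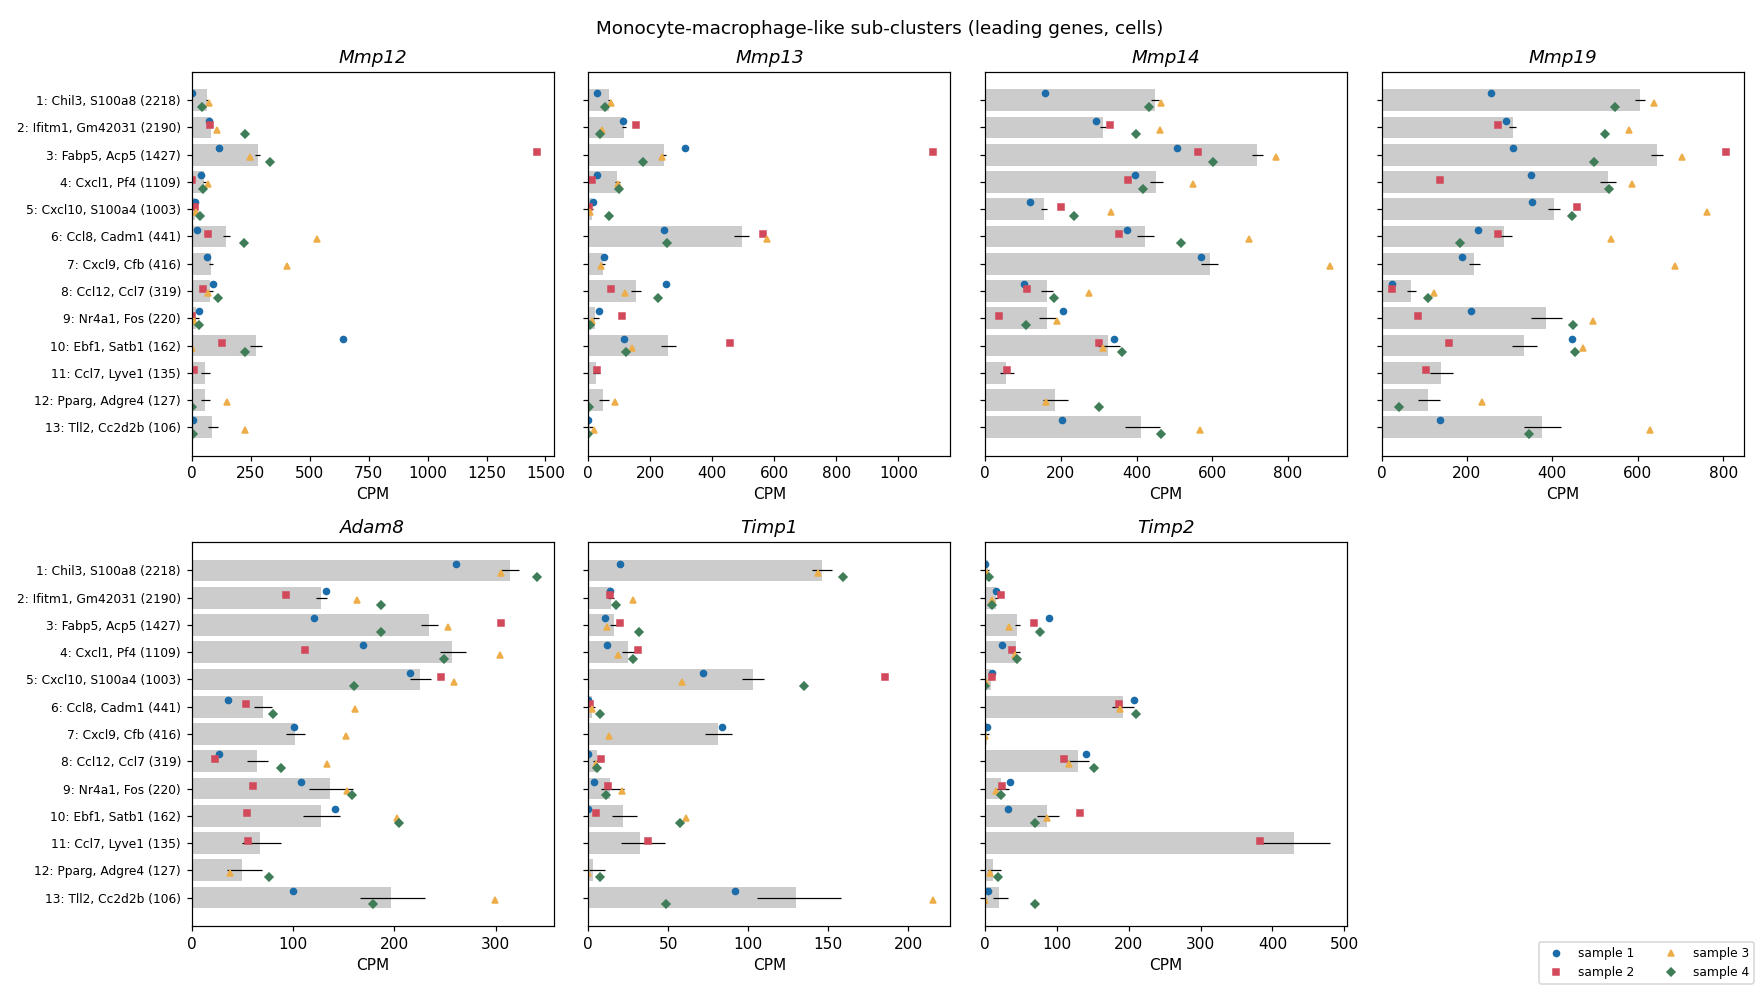
Level in CPM (x axes) of 7 members in the 13 monocyte-macrophage-like sub-clusters (rows, with 2 leading genes and the number of cells); gray bars are all samples together with 95% exact Poisson intervals, and points are samples with at least 20 cells. Mmp13 was 495 CPM in sub-cluster 6 and Timp2 430 CPM in sub-cluster 11, while Timp1 was 146 CPM in sub-cluster 1.

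Within sub-clusters the samples could be compared again where at least 20 cells were present. Mmp14 was highest in sample 3 in sub-clusters 1 to 8, for example at 461 CPM in sub-cluster 2 against 293, 330 and 399 in samples 1, 2 and 4. Mmp19 in sub-cluster 2 stood at 291, 272, 580 and 523 CPM in samples 1 to 4, close to the pattern of the whole class. Timp2 in sub-cluster 6 stood at 207, 187, 188 and 210 CPM, so the 5.30-fold range of the class was not seen within it. Timp2 did vary in others, at 45.2 CPM in sub-cluster 3 but 78.1 without sample 3. In sub-cluster 10 it was 86.7 CPM but 55.8 without sample 2. In sub-cluster 3 of sample 2, Mmp12 and Mmp13 reached 1462 and 1112 CPM on 27 cells only. Single cells gave 169 Mmp12 UMIs and 146 Mmp13 UMIs there. How much of each difference between samples came from sub-cluster make-up was not tested.

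Fibroblast-like cells split into 6 sub-clusters, again without the members. Sub-cluster 3, led by Ctla2a, Ptx3 and Gas1 (108 cells), held Timp1 at 1552 CPM (1487 to 1620), Mmp3 at 869 and Timp2 at 761 CPM, while Timp3 was 54.2 CPM. Mmp3 there was 417, 259 and 1624 CPM in samples 2, 3 and 4, and without sample 4 the level fell from 869 to 461 CPM, while Timp1 without sample 2 was 985 CPM. Sub-cluster 4, led by Cfd and Scd1, held Timp3 at 2460 CPM, Timp1 at 265 and Mmp3 at 174 CPM, and of its 75 cells 26 came from sample 1 and 39 from sample 2. Sub-cluster 5, led by Sox6, F3 and Mmp10, was small, with 31 cells. It held Mmp10 at 764 CPM (665 to 873), Mmp3 at 1304, Timp3 at 3433 and Mmp13 at 146 CPM, and Mmp10 was detected in 38.7% of its cells before thinning. Single cells gave 153 of the 215 Mmp10 UMIs, 297 of the 367 Mmp3 UMIs and 18 of the 41 Mmp13 UMIs in it.

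Sub-cluster 1, led by Lmcd1, Cemip and Cxcl13 (245 cells, 184 from sample 3), held Mmp14 at 953 CPM, Mmp3 at 660 (249 without sample 3) and Timp3 at 1384 CPM. In sub-cluster 2, led by Dnah12, Fos and Dusp1, Mmp3 was 54.6 CPM and Timp1 54.6 CPM beside Mmp14 at 800 CPM. Mmp14 and Timp2 were thus present in all 6 sub-clusters, whereas Timp1, Timp3, Mmp3 and Mmp10 were unevenly placed. Timp1 and Timp3 were opposite in sub-cluster 3 in each sample read, with Timp1 at 2614, 748 and 547 CPM and Timp3 at 84.2, 115 and 2.09 CPM in samples 2, 3 and 4. The Timp1 order of the class was not kept throughout, since sample 3 lay above sample 4 in that sub-cluster and sample 1 (373 CPM) above sample 2 (239 CPM) in sub-cluster 4. Sub-cluster 6 (29 cells) was led by the granzyme genes Gzmb and Gzma and held Ptprc at 939 CPM beside 12 of 12 fibroblast markers, and the counts of members given above were the same without it.

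**Figure D5:**
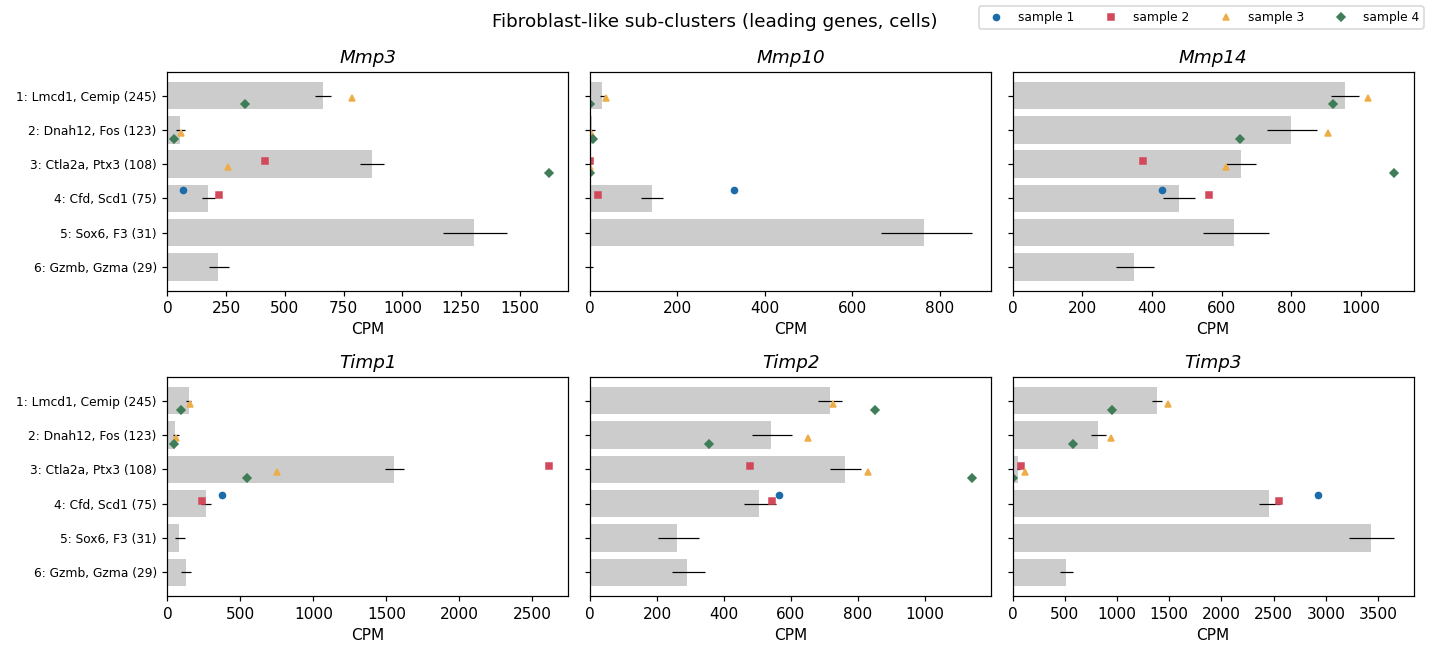
Level in CPM (x axes) of 6 members in the 6 fibroblast-like sub-clusters (rows, with 2 leading genes and the number of cells); gray bars are all samples together with 95% exact Poisson intervals, and points are samples with at least 20 cells. Timp1 was 1552 CPM and Timp3 54.2 CPM in sub-cluster 3, and Mmp10 was 764 CPM in sub-cluster 5.

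Among pericyte and smooth muscle-like cells, Mmp3 belonged to sub-cluster 1, led by Ereg, Pde4d and Mmp3, at 849 CPM, against 8.45 and 3.34 CPM in the other two. Of its 97 cells, 66 came from sample 3, and in that sample it stood at 1115 CPM, while without sample 3 the level was 285 CPM. A single cell gave 355 of its 932 Mmp3 UMIs. It had 6 of 8 pericyte markers and 11 of 12 fibroblast markers raised, with Acta2 at 1618 CPM and Dcn at 4939 CPM, so its assignment to either class is uncertain. When it was counted with the fibroblasts, Mmp3 was highest in fibroblasts in all 4 samples and the count of members with 1 class in all samples was 9 of 10. Among endothelial-like cells, sub-cluster 4, led by the lymphatic genes Ccl21a, Mmrn1 and Lyve1 (28 cells), held Timp3 at 3695 CPM and Timp2 at 763 CPM, in 96.4% and 89.3% of its cells. The 46 Mmp13 UMIs of that sub-cluster came from 2 cells. Among dendritic cell-like cells, sub-cluster 1, led by Plet1 and Plbd1, held Mmp12 at 90.2 CPM, against 10.5 CPM in sub-cluster 2, led by Fscn1 and Tmcc3.

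Lymphocytes held low levels of the MMP members. In B and plasma cell-like cells Mmp12, Mmp13, Mmp14 and Mmp19 stood at 1.17% to 4.97% of their monocyte-macrophage level, where reference genes of those cells stood at 1.10% to 4.08%. T, ILC and NK cell-like cells held 0.632 to 9.51 CPM of Mmp12 and 4.54 to 26.2 CPM of Mmp14. Epithelial-like cells held 23.5 to 48.4 CPM of Mmp14, 3.12 to 15.2 of Timp3 and at most 0.446 of Mmp3.

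Genes with the most similar pattern were sought by Pearson correlation of log2(CPM + 1) over 32 points, each a class in a sample, among 11244 genes. The points share libraries and depth, and the values are a description. Mmp3 was closest to Serpina3m and Rspo3 (both 0.99) and to Gdnf, Mmp12 to Clec4a1, Ptpro and Ms4a6d (0.93, 0.93 and 0.92) and Mmp13 to Tcirg1, Ctsa and Nxpe5 (0.87, 0.86 and 0.85). Mmp14 followed Tppp3 and Slc39a1 (both 0.95), Mmp19 followed Dram1, Pid1 and Saa3 (0.93, 0.93 and 0.92) and Mmp10 followed Cntn6, Frem1 and Frzb (0.91, 0.88 and 0.86). Timp1 was closest to Pianp, Vcan and Adgrl3 (0.95, 0.94 and 0.92), Timp2 to Ggt5, Acadsb and Sntb2 (0.92, 0.91 and 0.90) and Timp3 to Hspg2, Cavin1 and Amotl1 (each 0.98). Adam8 was closest to the myeloid genes Clec4e, Itgam and Clec4d (each 0.97). Among the members, Mmp14 and Timp1 were closest to each other (0.87), as were Mmp3 and Timp3 (0.85) and Mmp12 and Mmp13 (0.75). The member closest to Mmp19 was Timp1 (0.80), to Mmp10 and Timp2 it was Mmp3 (0.77 and 0.76) and to Adam8 it was Mmp12 (0.56).

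Other genes of the protease system were placed beside the members. Of 17 further MMPs listed, 16 were in the files and 4 reached 50 CPM in a class in each sample read. Mmp8, the neutrophil collagenase, stood at 1109 to 2103 CPM and Mmp9, gelatinase B, at 641 to 1171 CPM in neutrophil-like cells, where both were highest in all 4 samples. Mmp25, a membrane-type MMP of leukocytes, stood at 113 to 282 CPM in dendritic cell-like cells and was highest there in 2 samples. Mmp2, the gelatinase that MMP14 and TIMP2 activate together, was highest in fibroblast-like cells in all 4 samples at 397 to 572 CPM. As a class, neutrophil-like cells thus held Adam8 and Timp2 beside Mmp8 and Mmp9, and fibroblast-like cells held Mmp14 and Timp2 beside Mmp2. Detection of these further MMPs in the same single cells as the members is not read here.

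Of 10 further inhibitors, 5 reached 50 CPM. Slpi, a serine protease inhibitor, stood at 1772 to 3853 CPM in neutrophil-like cells and was highest there in 3 samples. Of 15 further ADAM and ADAMTS genes, 12 reached 50 CPM. Adam9 was highest in monocyte-macrophage-like cells in all 4 samples (75.4 to 119 CPM), Adamts2 and Adamts5 in fibroblast-like cells (171 to 299 and 53.9 to 109 CPM) and Adamts9 in endothelial-like cells of samples 3 and 4 (2369 to 2621 CPM). Of 11 activator genes, 6 reached 50 CPM, among them Plaur, the urokinase receptor, which was highest in neutrophil-like cells in 3 samples, at 376 to 522 CPM there and 331 to 451 CPM in monocyte-macrophage-like cells, and Ctsk, the collagen-cutting cathepsin K, at 125 to 207 CPM in fibroblast-like cells.

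Genes of matrix proteins, the substrates of these enzymes, were mostly highest in fibroblast-like cells. All 13 listed reached 50 CPM in a class in each sample read and 8 were highest in that class in all 4 samples. Eln, elastin, a substrate of MMP12, stood at 401 to 657 CPM in fibroblast-like cells and at 0.245 to 1.25 CPM in monocyte-macrophage-like cells. Col1a1, Col1a2 and Col3a1, which encode fibrillar collagens, are counted among the 8. They were among the markers that named the fibroblasts and are no independent result. Of 15 genes known from activated fibroblasts, 13 reached 50 CPM and 11 were highest in fibroblast-like cells in all 4 samples. Pdpn, podoplanin, stood at 663 to 1202 CPM, Tnfaip6 at 1448 to 1982 CPM and Cxcl5 at 168 to 1222 CPM in fibroblast-like cells. These are levels of the class that also held Mmp3, Mmp14 and the TIMPs, and detection in the same single cells is not read here.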

How the data were processed

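The authors deposited 4 matrices of raw UMI counts per gene and cell; per the labels they used Cell Ranger 5.0.0, STAR and Seurat with mm10, while the matrix headers name Cell Ranger 7.0.1. The intron setting and strand use are not given in the sources used here. Cells with at least 200 genes and under 20% mitochondrial UMIs were kept, and 3882 were removed by simulated-doublet scores, at an assumed 0.8% per 1000 cells. Cells were clustered on 2000 variable genes without the members and 30 components, by Leiden at resolution 1.0 in igraph 0.11.9. They were named "-like" from fixed markers, by a scoring rule written after clusters had been seen. Member genes and lists were chosen with earlier results of these data known. UMIs were summed per class and sample with Python 3.11.15, numpy 2.4.6 and scipy 1.17.1, and a class under 50 cells was not read. Depth, 72509408 to 135516016 UMIs per sample, sets the counting intervals. The text names all members, listed genes at or above 50 CPM in a class in each sample read or with the highest level of their list, the 3 most alike genes and the 5 leading genes of a sub-cluster. Some genes that this rule names are not reported here. No groups could be formed, so no p-values are given. Alternatives changed filters, doublets, resolution, mixed clusters, gating, averaging, thinning and the most extreme cells.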

Additional observations from a re-analysis of the deposited data

Results flagged for a closer look

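Each member also had UMIs in the 6900 kept cells outside the named classes, counted here with 22 glia-like cells. These cells enter none of the comparisons above. Among them were clusters of 970, 837 and 475 cells whose best-scoring marker list was that of neutrophils. For the MMPs these were 1770 UMIs of Mmp12, 1759 of Mmp13, 5552 of Mmp14 and 7381 of Mmp19, each 12.2% to 16.2% of the gene's UMIs in kept cells, with 25 of Mmp10 (3.54%) and 227 of Mmp3 (4.79%). For the inhibitors they were 1317 UMIs of Timp1 (13.9%), 2499 of Timp2 (16.6%) and 723 of Timp3 (5.16%). Adam8 had 11321 (24.1%). The 6900 cells make up 17.4% of those kept, and Adam8 alone exceeded that share. Among them was a cluster of 1283 cells led by Cd209a, a dendritic cell marker, with too few raised markers of any list. The levels of dendritic cell-like cells do not cover it. The 4 samples include no untreated colon as a background, and each value lies above the limit of 3 counts.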

How the results depend on the processing

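The 6 counts of members were recomputed under 11 alternatives, 2 of which (leaving out the fibroblast sub-cluster with granzyme genes, and moving the Ereg and Mmp3 sub-cluster to fibroblasts) were chosen after seeing the data. All 66 values stayed within 1.5 times the count reported, and no log2 ratio changed sign. Genes with 1 highest class in all samples numbered 7 to 9, those highest in fibroblasts 3 to 5 and in monocyte-macrophage-like cells 2 to 3. The log2 ratio of Timp3 moved from 8.64 to 9.45 without the top 1% of cells, and that of Mmp10 from 3.81 to 2.12. Of the values for single genes, 19 moved by more than the spread between samples or outside the counting interval and 111 did not. The 19 were the Timp3 ratio and 18 shares of cells with a UMI, all higher at greater depth, for example to a median of 9.11% for Mmp12 without thinning. No paired analysis was possible because the labels give no groups. The main limits are 59 to 322 fibroblast-like cells per sample, 1 pooled library per sample and counting intervals that leave out variation between animals.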
